A study of Homo sapiens with 12 samples.

Results

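The genes described here are 8 genes of the RAS-ERK pathway: the GTPases NRAS and HRAS, the kinase BRAF, and 5 feedback inhibitors, DUSP6, DUSP4, SPRY2, SPRY4 and SPRED1. They were taken from a fixed list because HT1080, an established human fibrosarcoma line, carries a mutant NRAS allele. They are 8 of the 20037 protein-coding genes of the RefSeq table for GRCh38.p14. Their accessible sites were the summits of the deposited ATAC-seq peak list that lay inside a gene or within 10 kb of it, 23 of 188019 summits. In ATAC-seq a transposase inserts adapters into open DNA. A summit is a local maximum of fragment coverage in a called site, or interval, which can hold several. Cells had migrated for 48 h in rat tail type-I collagen at 0.3 mg/mL (low), 1.0 mg/mL (medium) or 1.7 mg/mL (high), with 4 libraries for each concentration. All 3 groups were of this line, so all carried its mutant NRAS, and all received the metalloproteinase inhibitor GM6001 at 20 µM, so no group lacked the inhibitor. The 1 list used here names neither library nor concentration. It was taken as pooled over the 12 libraries because the names of its lines begin with 'all' and name no sample. No value below is therefore a comparison between concentrations, and there are no replicates. The list also carries no allele, so the mutant and normal NRAS copies could not be separated.

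RAS proteins are membrane-bound switches that are active when they carry GTP. Active RAS recruits RAF kinases such as BRAF, which start a chain of phosphorylation through MEK to ERK, and ERK in turn alters transcription. Inhibitors damp the same chain, and several of them are induced by it: DUSP6 and DUSP4 are phosphatases that inactivate ERK, in the cytoplasm and in the nucleus respectively, the Sprouty proteins SPRY2 and SPRY4 act upstream on receptor and RAS signalling, and SPRED1 brings the RAS inactivator neurofibromin to the membrane.

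In the pooled list, 7 of the 8 genes had at least 1 summit in the gene or within 10 kb, and DUSP6 had 0. Of all protein-coding genes 89.8% had such a summit. The 23 summits lay in 19 intervals of 279 to 1640 bp. In each of the 7 genes the strongest summit lay within 1000 bp of a RefSeq start or, for DUSP4, of a gene end. The start of DUSP4 was not in the promoter table used. Strength is given below as the authors' enrichment, the fold over the local background at the summit, and as the pileup, the coverage at the summit. For 53.0% of all summits that background equalled the genome-wide value of the list. The pileup was recovered from the enrichment and the deposited p and is given in fragments. Whether fragments or reads were counted is not stated in the sources used here. Intervals in brackets are exact Poisson 95% intervals of the pileup, take the counted units as independent and cover counting error only. They do not include the spread between libraries.

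**Figure D1:**
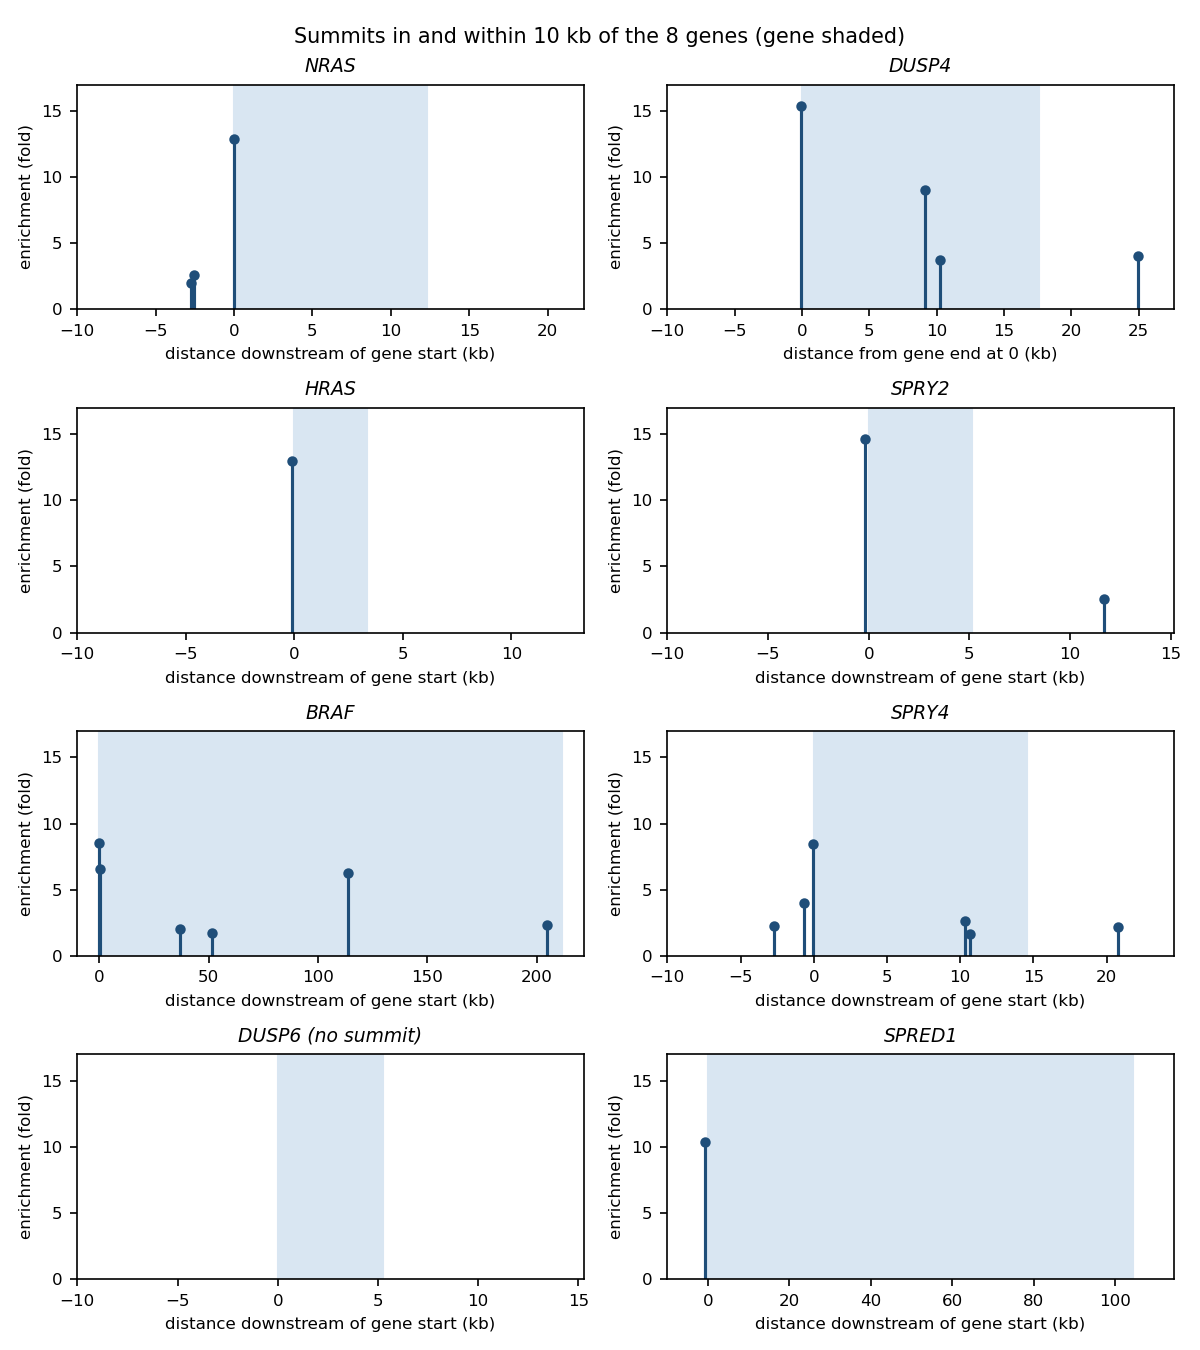
Summits in and within 10 kb of the 8 genes. The x axis is the distance in kb from the outermost gene boundary on the start side (for DUSP4, from the boundary with the higher coordinate), the y axis the authors' enrichment in fold, and shading marks the gene. The tallest line stands at 0 or close to it in 7 genes, from 8.44 in SPRY4 to 15.4 in DUSP4, and the DUSP6 panel holds no line.

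The sequences before 5 starts are printed because they show the DNA at 4 starts that lay inside called intervals, those of NRAS, HRAS, SPRY2 and SPRED1, and, for contrast, the DUSP6 promoter, at which no site was called. They run 5′ to 3′ along the gene's strand and stop at the base before the start (RefSeq, GRCh38.p14). For NRAS 100 bases are shown and for the others 250. Capitals mark matches, on either strand, to GGGCGG (bound by SP factors), CCGGAA (the core of ETS factor sites), CCAAT and CACGTG (an E-box).
NRAS, chr1:114716772-114716871 (minus strand): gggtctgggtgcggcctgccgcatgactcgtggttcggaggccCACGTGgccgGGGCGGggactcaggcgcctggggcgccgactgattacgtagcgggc
HRAS, chr11:535577-535826 (minus strand): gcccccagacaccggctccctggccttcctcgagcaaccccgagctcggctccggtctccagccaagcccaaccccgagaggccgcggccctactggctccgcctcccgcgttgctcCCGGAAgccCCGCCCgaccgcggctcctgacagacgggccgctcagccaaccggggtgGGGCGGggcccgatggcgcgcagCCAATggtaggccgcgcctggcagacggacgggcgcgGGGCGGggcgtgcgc
SPRY2, chr13:80341127-80341376 (minus strand): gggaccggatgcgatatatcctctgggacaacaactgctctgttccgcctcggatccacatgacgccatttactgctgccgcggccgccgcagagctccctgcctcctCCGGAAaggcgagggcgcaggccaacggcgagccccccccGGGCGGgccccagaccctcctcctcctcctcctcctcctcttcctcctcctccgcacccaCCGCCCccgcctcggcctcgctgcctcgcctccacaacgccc
SPRED1, chr15:38252586-38252835 (plus strand): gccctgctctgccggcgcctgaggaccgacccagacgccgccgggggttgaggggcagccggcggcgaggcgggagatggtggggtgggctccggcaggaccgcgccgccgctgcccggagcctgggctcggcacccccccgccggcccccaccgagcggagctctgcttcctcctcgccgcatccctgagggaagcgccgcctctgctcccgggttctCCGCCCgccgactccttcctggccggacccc
DUSP6, chr12:89352502-89352751 (minus strand): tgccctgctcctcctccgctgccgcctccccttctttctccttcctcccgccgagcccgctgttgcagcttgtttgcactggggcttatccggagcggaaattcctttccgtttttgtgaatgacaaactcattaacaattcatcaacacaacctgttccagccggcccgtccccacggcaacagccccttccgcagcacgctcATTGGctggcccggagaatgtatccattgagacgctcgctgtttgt
Called intervals covered the whole of the printed stretches of NRAS, HRAS, SPRY2 and SPRED1 and none of that of DUSP6. The strongest summits of NRAS, HRAS and SPRY2 fell within the printed bases, whereas that of SPRED1 lay further upstream, 807 bp from its start. The stretch of HRAS held 32 CpG dinucleotides, that of SPRED1 30, that of SPRY2 23 and that of DUSP6 16, and the shorter one of NRAS 12.

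NRAS, the RAS gene that is mutated in this line, had 3 summits in 2 intervals. The strongest was at 114716801 in chr1:114716238-114717150, 30 bp upstream of the NRAS start. Its enrichment was 12.9 with a pileup of 758 fragments (705 to 814). The interval covered the stretch printed above. The other 2 NRAS summits lay 2540 and 2741 bp upstream of the start, with enrichments of 2.60 and 2.01. No summit was called inside NRAS itself or within 10 kb downstream. HRAS had 1 summit, at 535687 in chr11:535506-536175, 111 bp upstream of its start. Its enrichment was 13.0 with a pileup of 703 (652 to 757). That position lies within the annotated span of LRRC56, which contains the whole of HRAS. The intervals of NRAS and HRAS overlapped in both measures, so the start sites of these RAS genes were not distinguishable in strength by counting error. Both stood close to the median of the strongest summit over all protein-coding genes with a summit, which was 12.4 in enrichment and 719 in pileup.

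BRAF, the RAF kinase of the set, had 6 summits over a gene of 211602 bp. Its start site was an interval of 1195 bp, chr7:140924086-140925280, with 2 summits. The stronger, at 140924993, reached an enrichment of 8.56 (7.78 to 9.41) with 431 fragments and lay 64 bp outside the outermost boundary of BRAF and 99 bp from the uncharacterised noncoding gene LOC105375536. The weaker, at 140924517, reached 6.60 with 330 fragments and lay 249 bp upstream of the RefSeq start used here. The other 4 summits were inside the gene. Among these the summit at 140811287, which was 112981 bp downstream of the start, reached an enrichment of 6.24 (5.23 to 7.39) with 132 fragments. The remaining 3 had enrichments of 1.74 to 2.30 and pileups of 36 to 48, near the weakest in the list, where the lowest pileup of any summit was 35. At all 4 of these other summits the background equalled the genome-wide value, 20.3 fragments. At the 2 start summits it was 49.2 and 49.4, so enrichments there have a different denominator. The pseudogene BRAFP1, on chromosome X, had 0 summits within 10 kb. BRAF had the lowest pileup at its strongest summit among the 7 genes.

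The ERK phosphatase genes stood at opposite ends. DUSP4 had 4 summits and the highest enrichment of the set. At its boundary with the higher coordinate, in chr8:29350016-29351251, the enrichment was 15.4 (14.6 to 16.2) with a pileup of 1588 (1511 to 1668). This summit lay 54 bp from DUSP4 and 236 bp from the uncharacterised noncoding gene LOC124901924. Inside the gene DUSP4 had a summit at 29341514 of enrichment 9.05 (8.23 to 9.94) and pileup 442, and beside it another at 29340400 with an enrichment of 3.71. The former had the highest enrichment of the 15 summits of the set that were not near a start or, for DUSP4, a gene boundary. Its distance from a DUSP4 start is unknown. A SPRY4 summit among the 15 had a higher pileup, 514. The last DUSP4 summit lay 7343 bp beyond the other boundary, with an enrichment of 4.07.

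DUSP6, on chromosome 12 from 89347235 to 89352501, had no summit in the gene or within 10 kb. Among protein-coding genes of at most 10 kb, like DUSP6, 78.7% had such a summit, so that 21.3% of short genes were without. The flanking summits were 134495 bp apart, at 89236482 and 89370977. On chromosome 12, 163 of 8558 distances between neighbouring summits were at least as long, and the median distance was 1064 bp. This is a share of distances, not of the bases of the chromosome, of which long distances take a larger part. The serial numbers that the peak list gives its intervals ran from 1 to 91278 with 0 missing, and those of the flanking intervals were 19216 and 19217. The region around was not without signal: 11 summits lay within 200 kb on the upstream side and 6 on the downstream side. The nearest, 18476 bp upstream of the DUSP6 boundary and inside the readthrough gene POC1B-DUSP6, had an enrichment of 2.94 with 165 fragments. The next, 23403 bp upstream, reached 10.5 with a pileup of 802, above the 758 of the NRAS start. A summit entered the list only at a q of 0.05 or below, and weaker signal at DUSP6 would not appear in it.

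**Figure D2:**
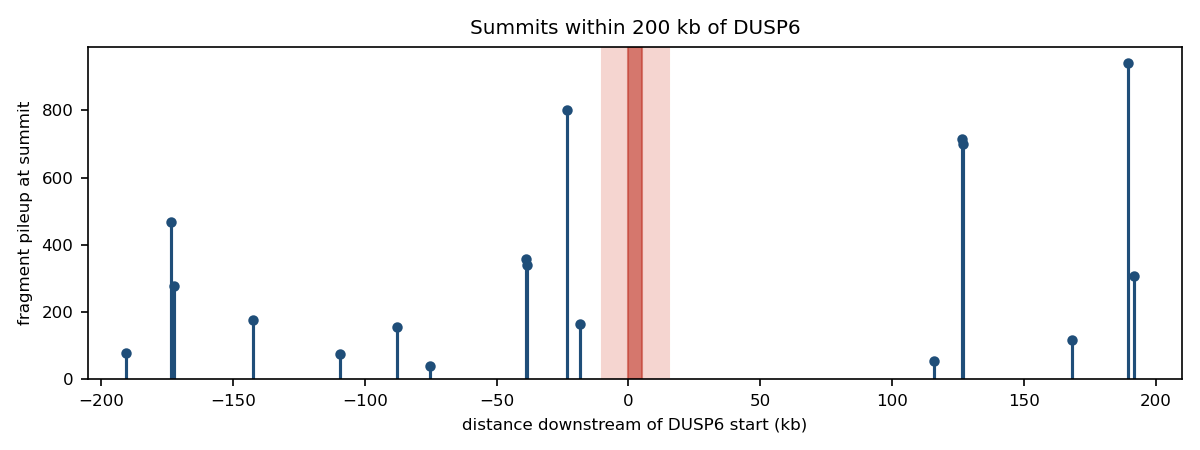
Summits within 200 kb of DUSP6. The x axis is the distance downstream of its start in kb, the y axis the fragment pileup at each summit, and the dark and light bands mark the gene and the 10 kb on either side. Both bands are empty, while a summit with a pileup of 802 stands 23403 bp upstream.

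The intervals with the strongest summits of the Sprouty genes differed in width. SPRY2 had the highest pileup of the set, 2441 fragments (2345 to 2540), at 80341305 in chr13:80341034-80341768, 179 bp upstream of the outermost of its 3 RefSeq starts. Its enrichment was 14.6 (14.0 to 15.2). No summit lay within 1000 bp of the other 2 SPRY2 starts. The only other SPRY2 summit lay 6518 bp beyond the gene and had an enrichment of 2.56. SPRY4 had 6 summits in 4 intervals. The longest interval of the set, 1640 bp (chr5:142324603-142326242), lay across the outermost boundary of SPRY4. It held a summit of enrichment 8.44 (7.94 to 8.95) and pileup 1082 and another of enrichment 4.03 and pileup 514. The stronger lay 78 bp outside the outermost boundary of SPRY4 and 194 bp from SPRY4-AS1, a noncoding gene on the opposite side, but 852 bp from the RefSeq start used here, which the interval did not contain. The other 4 SPRY4 summits had enrichments of 1.67 to 2.62.

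SPRED1 had 1 summit in a gene of 104414 bp. It lay 807 bp upstream of the start, at 38252029 in an interval of 1579 bp (chr15:38251277-38252855) that reached past the start. The enrichment was 10.4 (9.76 to 11.0) and the pileup 1085. No summit lay in the body of SPRED1, as was also so for NRAS, HRAS and SPRY2. Counted over the gene and 10 kb on either side, SPRED1 had the lowest density of summits among the 7 genes, 0.0804 per 10 kb. SPRY4 had 1.73 and the median over all protein-coding genes was 0.589. HRAS, which also had 1 summit but is 3335 bp long, had 0.429.

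The order of the genes depended on the measure. By enrichment it was DUSP4, SPRY2, HRAS, NRAS, SPRED1, BRAF and SPRY4. By pileup it was SPRY2, DUSP4, SPRED1, SPRY4, NRAS, HRAS and BRAF. In enrichment the intervals of DUSP4 and SPRY2 overlapped, as did those of HRAS and NRAS and those of BRAF and SPRY4, while SPRED1 overlapped with neither neighbour in the order. At the strongest summit the local background was 166 fragments for SPRY2, 127 for SPRY4, 104 for SPRED1 and 102 for DUSP4. It was 57.7 for NRAS, 53.2 for HRAS and 49.4 for BRAF. The genome-wide background of the list was 20.3 fragments. Thus SPRY4, with the lowest enrichment, had more fragments at its strongest summit than NRAS or HRAS. The median of the strongest enrichment was 12.9 over the 7 genes with a summit and the median of its pileup 1082. Over all 17996 protein-coding genes with a summit these were 12.4 and 719.

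**Figure D3:**
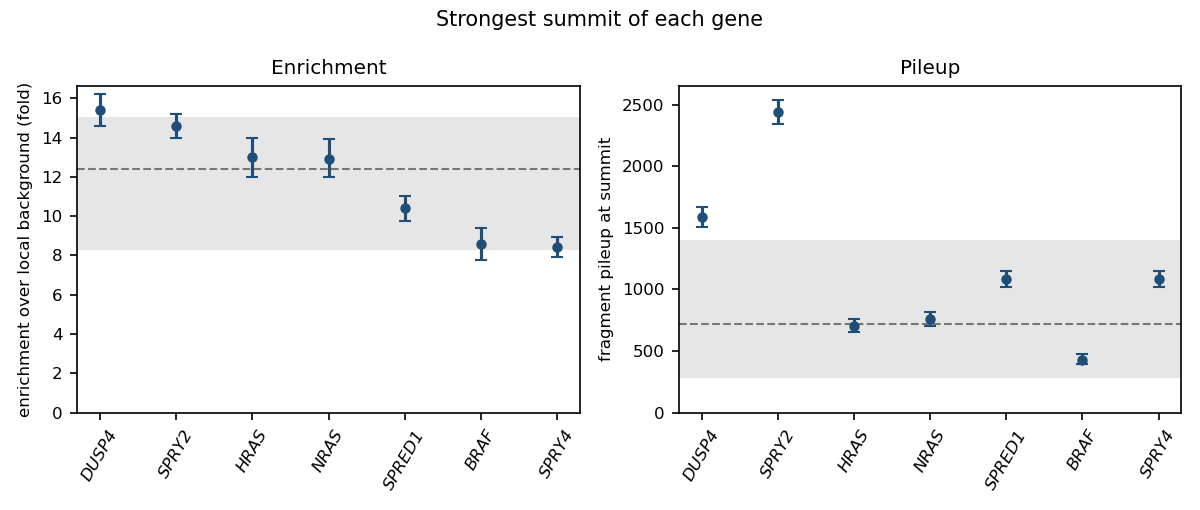
Strongest summit of each of the 7 genes with a summit, as enrichment in fold (left) and pileup in fragments (right). Bars are exact Poisson 95% intervals for counting error, the dashed line is the median and the grey band the quartiles of the strongest summit over all protein-coding genes with a summit. SPRY2 stands apart in pileup at 2441, and SPRY4 is lowest in enrichment at 8.44 but not in pileup.

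Within 1000 bp of a RefSeq start or, for DUSP4, of a gene boundary, 8 summits of the set had enrichments of 6.60 to 15.4 with a median of 11.7 and pileups of 330 to 2441. The 15 summits elsewhere, which include the SPRY4 summit 688 bp from the gene boundary but 1462 bp from the RefSeq start, had enrichments of 1.67 to 9.05 with a median of 2.56 and pileups of 36 to 514. The groups overlapped in both measures. Of the 7 genes with an entry in the promoter table, 6 had a summit within 1000 bp of a start, and DUSP6 was the exception. The same held for 67.7% of all protein-coding genes with an entry. At 500 bp the order turned, with 4 of 7 genes (57.1%) against 64.0% of protein-coding genes, so the set was not above the background at both distances. Counted by either gene boundary, as needed for DUSP4, 7 of 8 genes had a summit within 1000 bp, against 65.7% of protein-coding genes. The first summits left out by the limit of 10 kb lay 12352 bp (HRAS) to 34299 bp (NRAS) from the gene. Their enrichments ranged from 1.59 at HRAS to 12.7 at BRAF. Between 10 and 50 kb, HRAS had 16 further summits, DUSP4 8 and SPRY2 2.

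The promoter windows of the table, which run from 250 bases before to 50 after a start, were compared for CpG content. Among coding windows with 0 to 4 CpG dinucleotides 15.8% had a summit within 1000 bp, against 74.1% with 15 to 19 and 85.7% with 35 or more. HRAS had 40, SPRED1 32, the outermost SPRY2 start 30, SPRY4 26, NRAS 25, DUSP6 19 and BRAF 16. BRAF had a summit within 1000 bp of its start and DUSP6 had none. Of 2277 coding windows within 2 CpG of DUSP6, 78.3% had a summit. Whether CpG content bears on the absence at DUSP6 was not tested. The 2 SPRY2 starts without a summit had 15 and 6.

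**Figure D4:**
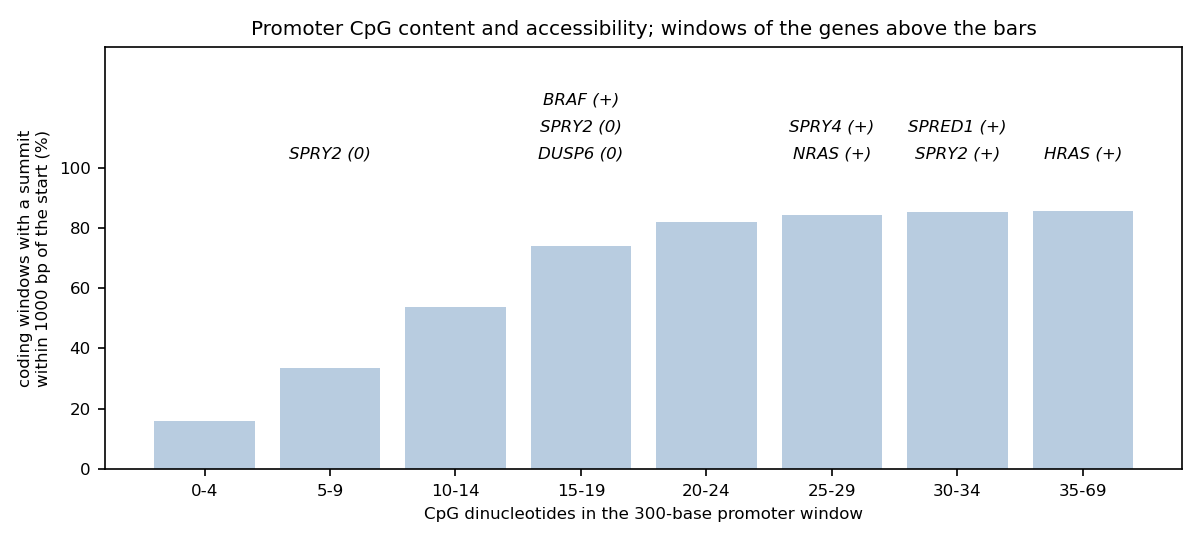
Promoter CpG content and accessibility. The x axis groups coding promoter windows by their number of CpG dinucleotides, and bars give the percentage with a summit within 1000 bp of the start. Names above the bars place the 9 windows of 7 genes, with (+) for a summit and (0) for none. DUSP6 (0) falls in the bin of 15 to 19, where 74.1% had a summit, with BRAF (+) and a SPRY2 window (0).

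Motif matches in these windows were counted on both strands. Members were counted by gene, where a match in any SPRY2 window sufficed. The shares beside them are over single windows of coding and other genes together, of which 22199 were coding. Member counts and shares are therefore not like for like. By window, GGGCGG was in 6 of 9 member windows and CCGGAA in 3 of 9. GGGCGG was in windows of 5 of the 7 genes (HRAS, NRAS, SPRED1, SPRY2 and SPRY4) and in 45.0% of all 35116 windows of the table. The ETS core CCGGAA was in those of HRAS, NRAS and SPRY2 and in 17.2% of all windows, and the longer CCGGAAGT, which contains that core, in that of NRAS and in 4.14%. CCAAT was in those of BRAF, DUSP6 and HRAS and in 34.6%. The E-box CACGTG was in that of NRAS and in 7.26%. CCCTC, a short part of the CTCF site, was in windows of 5 genes and in 71.2% of all. No member window held the AP-1 site TGANTCA (7.71% of all windows), the CRE TGACGTCA (1.85%), TATAAA (11.5%) or an SRF CArG box (1.29%). These are matches of letters only, and none was tested as a site.

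Other genes of the pathway were read from a list of 45 ordered by role. All 45 had a summit in the gene or within 10 kb, against 89.8% of all protein-coding genes. DUSP6 was thus the only one of 53 pathway genes without. Of the 32 with an entry in the promoter table, 31 had a summit within 1000 bp of a start, called open here, against 67.7% of protein-coding genes. The exception was DUSP9, an ERK phosphatase gene on chromosome X. By either boundary it was 42 of 45, against 65.7% of protein-coding genes. Among RAS-like genes 2 of 2 with an entry were open, with enrichments at the start of 6.87 for MRAS and 6.72 for RRAS2. Exchange factors, which load RAS with GTP, and adaptors were together open in 5 of 5, from 7.78 for the adaptor SHC1 to 16.6 for the exchange factor SOS2. RAS GTPase activators, which switch RAS off, were open in 4 of 4, from 3.10 for RASA1 to 13.6 for NF1, the gene of neurofibromin. RAF kinases and their scaffolds were open in 5 of 5, from 1.83 for the scaffold KSR2 to 13.6 for ARAF. MEK and ERK genes were open in 3 of 3, from 5.44 for MAPK3 (ERK) to 15.5 for MAP2K1 (MEK). Of the other dual specificity phosphatases 5 of 6 were open, from 3.84 for DUSP2 to 10.7 for DUSP10. Of the other Sprouty and SPRED genes 4 of 4 were open, from 3.56 for SPRY1 to 11.8 for SPRED2. Of the ERK target genes 3 of 3 were open, from 5.98 for the receptor EPHA2 to 11.3 for PHLDA1. These values hold for the starts in the promoter table, and those within 1000 bp of a gene boundary can differ. There RASA1 reached 11.5 and SHC1 12.6, while SPRED2 had 6.33 and RRAS2 and SPRY1 had no summit. The median of the highest enrichment was 12.7 over the 45 genes, against 12.4 over all protein-coding genes with a summit.

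**Figure D5:**
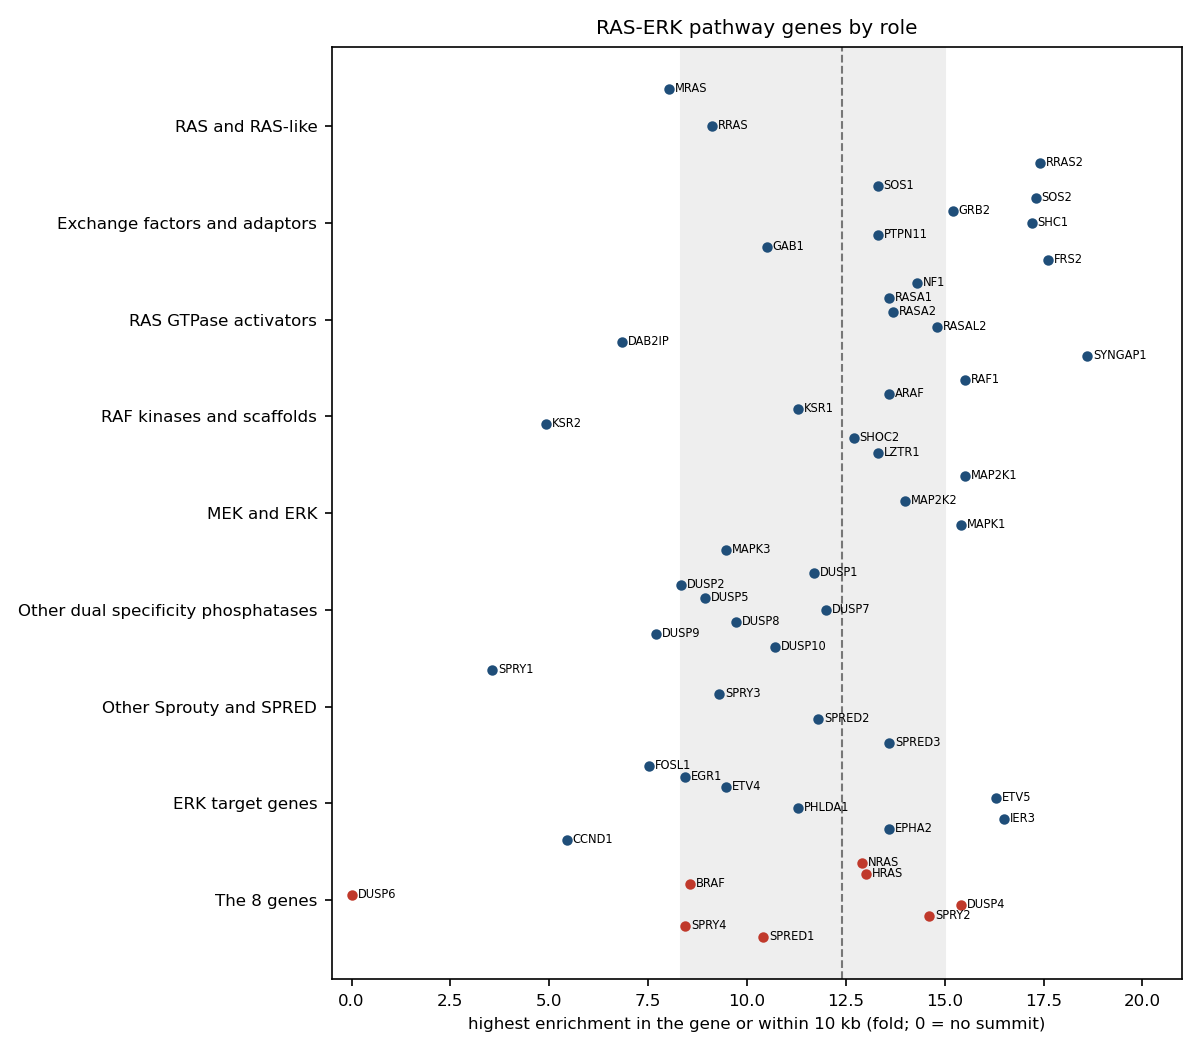
Highest enrichment in the gene or within 10 kb for the 45 other pathway genes by role (blue) and the 8 genes (red), in fold. The dashed line and grey band are the median and quartiles of all protein-coding genes with a summit. DUSP6 stands alone at 0, which marks no summit, and SPRY1 is next lowest at 3.56.

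The labelled line was checked against markers. Of 8 mesenchymal marker genes 7 had a summit within 1000 bp of a gene boundary, with THY1 the exception, against 1 of 5 epithelial, 2 of 5 blood, 0 of 3 endothelial, 1 of 3 neural and 1 of 2 liver markers and 65.7% of all protein-coding genes. With the gene and 10 kb around it the lists were not separated: 8 of 8 mesenchymal, 5 of 5 blood and 3 of 3 endothelial markers had a summit, as did 3 of 5 epithelial ones. The median of the highest enrichment was 9.59 for mesenchymal, 15.9 for epithelial and 13.3 for blood markers. CDKN2A, known to be deleted in HT1080, had 0 summits in the gene or within 10 kb. So did 10.2% of all protein-coding genes, and the deletion itself was not tested.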

How the data were processed

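ATAC-seq was done on 12 libraries of HT1080 cells. Per the submitters' processing notes the tools were fastp 0.20.0, Bowtie2 2.4.3, deepTools 3.5.0, SAMtools and MACS2 2.2.7.1 with the build hg38; their roles and settings are not given in the sources used here. The deposited list has 10 columns and no header. Its enrichment is a fold ratio over the local background, its p and q are −log10 values, and its score is the −log10 q times 10, truncated, in 99.8% of the deposited lines. Interval and summit positions in the deposited list are other values, counted from 0, and are printed here from 1. Depth per library is unknown, and values per library were not analysed here.

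The pileup and background were solved from enrichment = (pileup + 1)/(background + 1) and p as the upper Poisson tail, a model not stated in the labels. It gave a whole pileup, within 0.05, in 99.96% of lines. The solver was tested on simulated data. Genes were matched by symbol to RefSeq GRCh38.p14; the promoter table gave a start for 7 of the 8 genes and for 15843 protein-coding genes. Work used Python 3.11.15, scipy 1.17.1 and pandas 2.3.3. The members and lists were chosen with earlier results of these data known. All 8 genes are named; of the pathway list, the highest and lowest enrichment at a start in each role and genes with an entry but no summit. Some planned items are not reported here. No test was run. Alternatives were a −log10 q of at least 10, 1 summit per interval, windows of 0 and 50 kb, interval overlap, intervals of at most 10 kb, pileup for order, 500 and 2500 bp from the start, and either gene boundary.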

Additional observations from a re-analysis of the deposited data

How the results depend on the processing

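The number of summits, 23, fell to 9 when only the gene itself was counted and rose to 69 with a window of 50 kb, and the median of the highest enrichment, 12.9, was then 6.60 and 13.9. The strongest summits of all 7 genes lie outside the gene boundary, so the narrower setting leaves them out: NRAS, HRAS, SPRY2 and SPRED1 then also had 0 summits, and the median of 6.60 is over BRAF, DUSP4 and SPRY4 alone. The wider one brings in DUSP6. With a −log10 q of at least 10 there were 18 summits, and with 1 summit per interval 19; the median was 12.9 in both, with interval overlap and with intervals of at most 10 kb. DUSP6 had 0 summits in every setting but the window of 50 kb, where it had 4. Within 500 bp of a start 4 of 7 genes (57.1%) had a summit, below the 10138 of 15843 protein-coding genes (64.0%), since those of SPRY4 and SPRED1 lie 852 and 807 bp away; the count was 6 with 2500 bp, with the stricter q and with interval overlap. In the pathway list it was 30 or 31 of 32, and 42 of 45 by either boundary. Over protein-coding genes it ranged from 9978 to 11562 of 15843. Ranked by pileup, all 7 genes changed place. No paired analysis was possible because the pooled list has no column per library; the planned fits between concentrations, with and without a replicate block, were not run. Counting limits the precision of weak summits: the lowest pileup among the 23, in BRAF, was 36 fragments, and the lowest enrichment, 1.67 in SPRY4, rests on 41.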

Other observations

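The 8 ERK target genes of the pathway list were described after their values were seen. They spread widely in the pileup at their summit of highest enrichment in the gene or within 10 kb. It was 3382 fragments at PHLDA1, 3242 at ETV5, 2614 at EGR1 and 2489 at FOSL1, with enrichments of 11.3, 16.3, 8.44 and 7.53. It was 1021 for CCND1, 977 for ETV4, 974 for EPHA2 and 694 for IER3, with enrichments of 5.44, 9.47, 13.6 and 16.5. Within 1000 bp of a gene boundary the highest enrichments of EPHA2 and IER3 were 5.98 and 7.28, so their strongest summits lay elsewhere in the window. Over all protein-coding genes with a summit the median pileup was 719 and the median enrichment 12.4. SPRY2, the member with most fragments, had 2441, which was above the strongest summit of 92.3% of these genes. No explanation of these levels was tested.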
